A study of Homo sapiens with 6 samples.

Results

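BSN, STXBP5L, ARHGAP20 and CHRM4 are 4 genes, most of them best known from neurons. Each was weakly expressed in SaOS-2 osteosarcoma cells and had higher normalized counts after p21 was induced. They were chosen by that rise, measured as the log2 difference between induced and untreated cells: among genes called higher without overlap between the groups and with a mean of at least 50 normalized counts, they stood next below CDKN1A, the gene of p21 itself. That difference is therefore given as a description, without a test. All 4 were found among the 23228 gene names of the deposited table, and all 4 were among the 13255 genes that averaged 10 or more and entered the fit across the table.

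BSN encodes Bassoon, a very large scaffold of the presynaptic active zone, the patch of membrane where synaptic vesicles dock and fuse. STXBP5L encodes tomosyn-2, which binds SNARE proteins and so holds back the fusion of vesicles with the plasma membrane. ARHGAP20 encodes a GTPase-activating protein, a kind of enzyme that turns off small GTPase switches of the actin cytoskeleton, and it is known as a target of the switch RAP1. CHRM4 encodes the muscarinic acetylcholine receptor M4, which acts through G proteins of the Gi and Go class to lower cyclic AMP. In cells outside the nervous system many neuronal genes are held low by the repressor REST and its partner proteins.

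SaOS-2 is a human osteosarcoma line that, by the study's text, is null for RB. The cells of all 6 libraries carried a Tet-inducible p21 vector and were grown in DMEM with fetal bovine serum; untreated cells (p21 OFF) gave 3 libraries and cells kept for 24 h in 1 μg/ml doxycycline (p21 ON) gave 3. Doxycycline in cells that lack the vector was not analysed here, so the drug and p21 cannot be told apart. The study's methods speak of biological replicates in general, but the labels do not say whether these were separate cultures, so p-values measure only the spread between these samples, which may be technical.

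The libraries held 12795490 to 21975045 reads on genes. CDKN1A rose from 1266 ± 84.5 to 43691 ± 3138 normalized counts (SD, n = 3), a log2 difference of 5.11. RB1 was read at 555 normalized counts in p21 OFF and 654 in p21 ON cells. Reads on a gene do not show whether working protein is made, which was not tested. The osteoblast markers RUNX2, SP7, ALPL and SPARC were highly expressed in both groups, while BGLAP was at 0 and SPP1 and COL1A2 were close to it. Untreated replicate 1 stood apart from replicates 2 and 3, with a chi-square per gene of 8.50 and 9.26 against 2.71 to 3.98 for the other replicate pairs, and its departures went with gene length.

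BSN had 18.8, 28.9 and 35.5 normalized counts in the 3 untreated libraries, which correspond to 15, 37 and 48 reads. After induction it had 88.5, 58.5 and 88.4 normalized counts, or 76, 48 and 93 reads. The groups did not overlap, and the lowest induced library was 1.65 times the highest untreated library. The means were 27.7 ± 8.38 and 78.4 ± 17.3 (SD, n = 3), a ratio of 2.83 and a log2 difference of 1.49 with a standard error of 0.23 on the log2(normalized count + 1) scale, on which all log2 differences here are given.

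STXBP5L read 27.6, 31.2 and 39.2 normalized counts without doxycycline, from 22, 40 and 53 reads. The induced libraries held 81.5, 73.1 and 96.9 normalized counts, from 70, 60 and 102 reads. Its 3 induced libraries again lay above all untreated ones, the closest pair by a factor of 1.87. The mean went from 32.7 ± 5.91 to 83.8 ± 12.1 (SD, n = 3), a ratio of 2.57 and a log2 difference of 1.34 with a standard error of 0.18.

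ARHGAP20 was the steadiest of the 4 genes before induction, at 36.4, 37.5 and 31.0 normalized counts from 29, 48 and 42 reads. With doxycycline it was at 108.3, 80.4 and 69.4 normalized counts, from 93, 66 and 73 reads, so its induced libraries spread the most of the 4. Even so the lowest of them was 1.85 times the highest untreated library. Its mean moved from 35.0 ± 3.46 to 86.0 ± 20.04 (SD, n = 3), a ratio of 2.46 and a log2 difference of 1.25 with a standard error of 0.18.

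CHRM4 had 21.4, 35.9 and 34.0 normalized counts in untreated cells, from 17, 46 and 46 reads. In induced cells it had 76.8, 63.4 and 73.2 normalized counts, from 66, 52 and 77 reads. Here too the groups were apart, by a factor of 1.76 between the closest libraries. The means were 30.4 ± 7.92 and 71.1 ± 6.97 (SD, n = 3), a ratio of 2.34 and a log2 difference of 1.23 with a standard error of 0.20, the smallest rise of the 4. In a culture of cells, more cells that transcribe a gene and more of its RNA in each cell cannot be told apart.

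**Figure D1:**
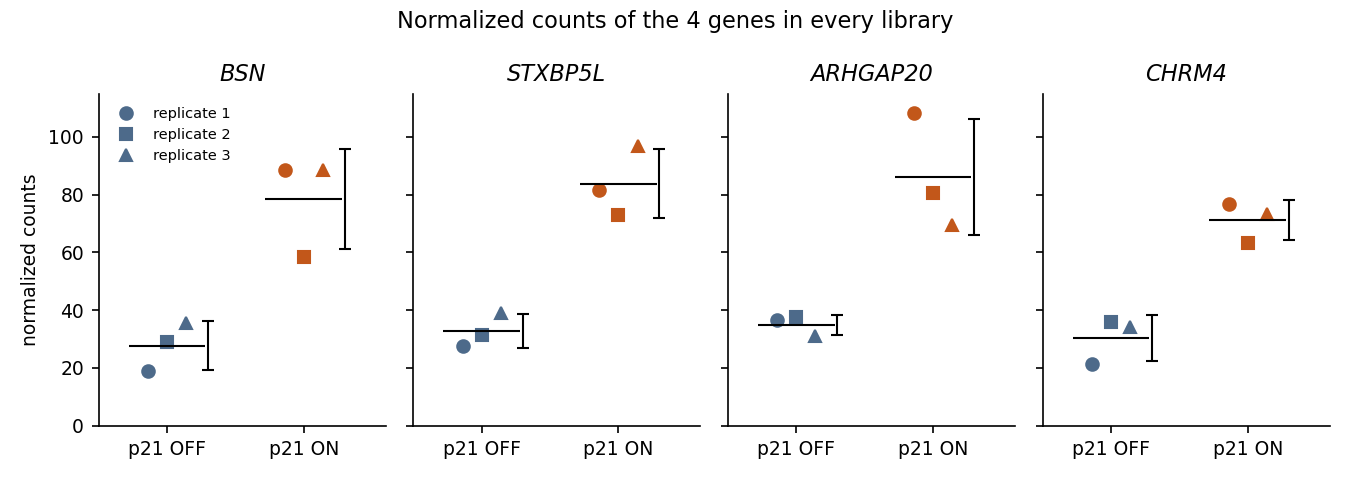
Normalized counts of BSN, STXBP5L, ARHGAP20 and CHRM4 in the 3 p21 OFF libraries (blue) and the 3 p21 ON libraries (orange), with a symbol for each replicate number, the group mean as a line and the SD as a bar beside it. Over the 4 panels the untreated libraries reach at most 39.2 and the induced libraries start at 58.5, with the widest induced spread for ARHGAP20, from 69.4 to 108.3.

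The 4 genes did not rank the libraries in the same order. Untreated replicate 1 was the lowest untreated library for BSN, STXBP5L and CHRM4, with departures from the group mean of -0.49, -0.22 and -0.46 on the log2 scale, but for ARHGAP20 it was above the group mean, at 0.06. Induced replicate 2 was the lowest induced library for BSN, STXBP5L and CHRM4, and induced replicate 3 for ARHGAP20. Without untreated replicate 1 the log2 differences were 1.24 for BSN, 1.23 for STXBP5L, 1.28 for ARHGAP20 and 1.00 for CHRM4, so that ARHGAP20 then had the largest of them.

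At 15 to 102 reads a library, counting alone gives an appreciable spread. For BSN the coefficient of variation between untreated libraries was 30.2%, where the mean number of reads gives 17.3% from counting error alone, and between induced libraries 22.0% against 11.8%. For CHRM4 it was 26.0% against 16.6% without induction, but 9.80% against 12.4% with it. ARHGAP20 changed the other way, from 9.88% against 15.9% to 23.3% against 11.4%. STXBP5L stayed nearest to its counting error, with 18.1% against 16.2% and 14.4% against 11.4%. These values from the reads cover counting error only, and each spread rests on 3 libraries.

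In the fit across the table, limma called 1393 of 13255 genes higher, 10.5% of those tested, and 1681 lower, 12.7%, at an adjusted p under 0.05. With libraries scaled by their total reads alone the same fit called 2034 higher and 1194 lower, and without induced replicate 1 it called 695 and 887, or 739 and 1077 without induced replicate 3. The 3 induced libraries lay above all 3 untreated libraries for 19.1% of tested genes and below them for 21.3%. BSN, STXBP5L, ARHGAP20 and CHRM4 passed both criteria by the way they were chosen, and nothing is read from that. Of the 1346 genes called higher without overlap, 1209 had a mean of at least 50, and in that set the genes next in rank after CHRM4 were TP73 with a log2 difference of 1.21 at a mean of 204.4, SYT10, a synaptotagmin, with 1.14, RHBDL3 with 1.06 and PIGZ with 1.03.

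The limit of 50 on the mean decided which genes led the ranking. The means of the 4 genes over all 6 libraries were 53.1 for BSN, 58.3 for STXBP5L, 60.5 for ARHGAP20 and 50.8 for CHRM4, close above it. SLC4A4, a sodium bicarbonate cotransporter, was just below it at 43.9 with a log2 difference of 1.36. Among the 137 genes called higher without overlap and with a mean under 50, 2 had a larger rise than BSN and 11 a larger rise than CHRM4. The largest were MAPK4, an atypical MAP kinase, with 1.56, GNAO1 with 1.50, FAM21A with 1.37, SLC4A4 and PADI1 with 1.35; MAPK4, FAM21A and PADI1 lost the call when certain single libraries were left out, and FAM21A has near-identical copies that can share its reads.

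By expression level the 4 genes lay at percentiles 14.5, 15.4, 15.9 and 14.2 of tested genes in the order given above, where the median gene had a mean of 474.7 normalized counts. The class from 50 to 100 normalized counts, which holds all 4, had 956 tested genes, of which limma called 137 higher, 14.3%, and 45 lower, 4.71%. Without induced replicate 1 these counts were 74 and 24, without induced replicate 3 they were 70 and 27, and without untreated replicate 1 the genes called lower numbered 28. In this class 5 genes were called higher without overlap at a log2 difference of at least 1. They include the 4 described here, which were chosen by such a rise, so nothing is read from that number. Among all genes with a mean of at least 500, a larger set, there were 2, including CDKN1A, the induced gene, and nothing is read from that number either.

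The balance of the calls went with expression level across the whole table. In the class from 10 to 20 normalized counts 4.28% of genes were called higher and 0.252% lower, while in the class of 5000 and over 5.86% were called higher and 24.2% lower. These rest on 34 and 2 genes in the first class and 31 and 128 in the last, and single libraries moved them: with induced replicate 1, 2 or 3 left out the first class had 9, 18 or 7 genes called higher, and its genes called lower ranged from 1 to 4 over all left-out libraries. In the last class 16 were higher and 68 lower without induced replicate 1, 14 higher without induced replicate 3 and 51 higher without untreated replicate 3. The median log2 difference fell from 0.23 in the first of these classes to 0.14 between 50 and 100 and to -0.06 in the last. Its median standard error fell over the same classes from 0.32 to 0.06, so that the smallest change that can pass the test was larger for weakly expressed genes.

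**Figure D2:**
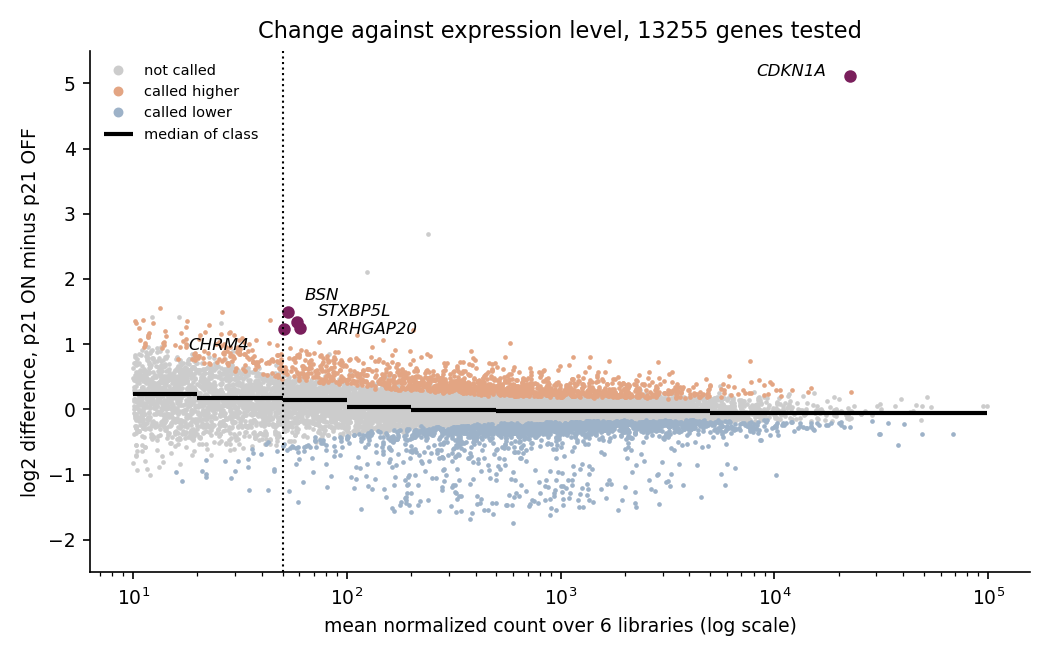
Log2 difference, p21 ON minus p21 OFF, of 13255 genes (vertical axis) against their mean normalized count over 6 libraries on a log scale (horizontal axis), coloured by the limma call, with the median of each class of mean as a black line and the mean of 50 as a dotted line. BSN, STXBP5L, ARHGAP20 and CHRM4 (purple) sit just right of the dotted line between 1.23 and 1.49, and CDKN1A stands alone at 5.11.

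**Figure D3:**
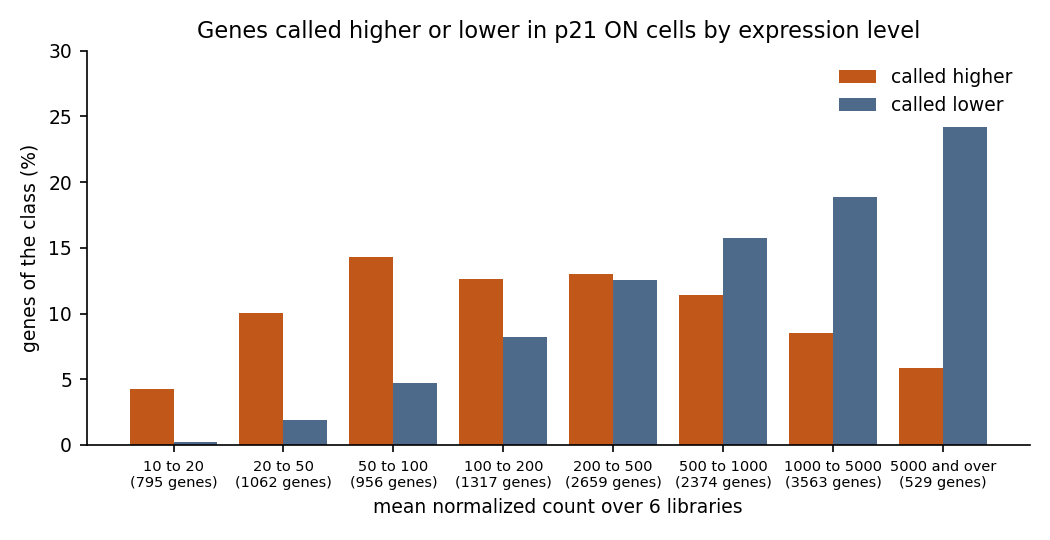
Percent of the genes of each class of mean normalized count that limma called higher (orange) or lower (blue) in p21 ON cells, with the number of genes under each class. The class from 50 to 100, which holds the 4 genes, has the largest share called higher in this limma fit, 14.3%, though DESeq2 called 87 of its 956 genes higher against 137 here, and the share called lower grows from 0.252% in the lowest class to 24.2% in the highest.

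Per kilobase of exon the 4 genes were further apart than their normalized counts show. In untreated cells BSN had 1.71 ± 0.52 normalized counts per kilobase of merged exons, STXBP5L 2.93 ± 0.53, ARHGAP20 4.90 ± 0.48 and CHRM4 9.92 ± 2.58 (SD, n = 3). With p21 induced the levels on this scale were 4.83 ± 1.06, 7.52 ± 1.08, 12.0 ± 2.81 and 23.2 ± 2.27. The order was the same in both groups. Within each group no library of a gene reached the libraries of the next gene in the order. The means of the 4 genes over all libraries were similar, from 50.8 to 60.5 normalized counts, close above the limit used in choosing them. Their merged exons differ far more, at 16241 bp for BSN, 11154 bp for STXBP5L, 7139 bp for ARHGAP20 and 3066 bp for CHRM4. The order and spacing per kilobase therefore follow mainly from exon length and that choice, and nothing is read from them. The median of 11401 tested genes with a gene model was 95.5, and the 4 genes lay at percentiles 3.27, 5.86, 9.65 and 16.3 by their mean over all libraries, and even the induced level of CHRM4 stayed well below the middle of the table.

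Gene models of GENCODE on GRCh37 place BSN on chromosome 3 from 49591910 to 49708982 on the plus strand, with 12 exons and 16241 bp of merged exon sequence. STXBP5L is also on chromosome 3, from 120626919 to 121143608 on the plus strand, with 27 exons spread over 516690 bp. ARHGAP20 lies on chromosome 11 from 110447766 to 110583912 on the minus strand, with 15 exons. CHRM4 lies on chromosome 11 from 46405339 to 46413326 on the minus strand and is the compact gene of the set, with 2 exons. By merged exon length BSN, STXBP5L and ARHGAP20 were at percentiles 95.4, 86.7 and 66.4 of tested genes and CHRM4 at 19.5. The GC content of their main transcripts also differed, at 60.9% for BSN, 38.6% for STXBP5L, 43.6% for ARHGAP20 and 61.7% for CHRM4 against a median of 48.1%.

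Gene length went with the values of this table, both between libraries and between groups. In untreated replicate 1 the departure of a gene from its group mean fell with exon length across 11401 genes, which are not independent replicates (Spearman correlation -0.39), with a median departure of -0.05 for genes of 6 kb and over, the class of BSN, STXBP5L and ARHGAP20, and 0.11 for genes under 2 kb. Among genes with a mean from 50 to 100, 55 of 250 with exons of 6 kb and over were called higher, 22.0%, against 33 of 199 from 4 to 6 kb, 16.6%, and 31 of 229 from 2 to 4 kb, the class of CHRM4, 13.5%. Under 2 kb it was 0 of 79. The counts of 55 and 31 include the 4 genes described here, which were chosen by their rise. With the trend on length taken out, an alternative chosen after seeing the data, the log2 differences were 1.38 for BSN, 1.26 for STXBP5L, 1.23 for ARHGAP20 and 1.30 for CHRM4. With a trend on GC content taken out they were 1.46, 1.37, 1.26 and 1.20.

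None of the tested genes beside or across the 4 loci was called higher, where 10.5% of all tested genes were. These are few genes and some lie far off, so nothing is read from that. BSN lies between DAG1, with a log2 difference of 0.19 (limma adjusted p = 0.112), and APEH, with -0.03 (adjusted p = 0.711). On one side of STXBP5L, GTF2E1, 125003 bp away, had -0.10 (adjusted p = 0.399). On the other side is POLQ, a DNA polymerase of the repair of broken ends. POLQ runs on the opposite strand toward STXBP5L, so its end and not its start lies 6670 bp beyond that gene. POLQ fell by 1.28 on the log2 scale from 874 to 361 normalized counts (adjusted p = 9.73e-09). Around ARHGAP20 the nearest tested genes, FDX1 at 112158 bp and LAYN at 827093 bp, had -0.27 and -0.04 (adjusted p = 0.0816 and 0.743).

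CHRM4 shares 49 bp of exon with MDK on the opposite strand, and MDK was at 2001 normalized counts in untreated and 1867 in induced cells, a log2 difference of -0.10 (adjusted p = 0.291). DGKZ and AMBRA1, on either side of these genes, had -0.02 and 0.11 (adjusted p = 0.856 and 0.328). STXBP5L shares 22 bp of exon with an antisense noncoding gene. The libraries were made with a stranded kit, but the strand setting of the counting is not given in the sources used here, so whether reads from these short stretches were kept apart was not tested. Of the 9 neighbouring or overlapping genes tested, 8 were not called and POLQ was lower, where 10.5% of all tested genes were higher and 12.7% lower.

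**Figure D4:**
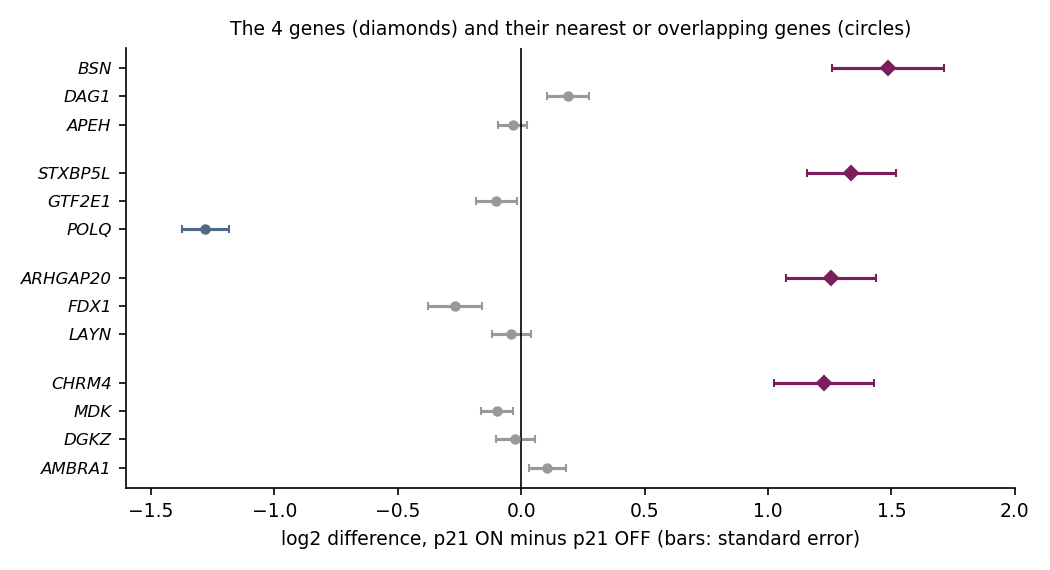
Log2 difference, p21 ON minus p21 OFF, with its standard error for BSN, STXBP5L, ARHGAP20 and CHRM4 (purple diamonds) and for the nearest or overlapping genes listed under each (circles: grey not called, blue called lower). The 4 diamonds lie between 1.23 and 1.49, 8 of the 9 circles lie between -0.27 and 0.19, and POLQ lies at -1.28.

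The promoters of genes chosen for the same rise are shown so that the base composition and short motifs before their start sites can be compared. The 250 bases before the start site were available for BSN (chr3:49554227-49554476, plus strand), STXBP5L (chr3:120907955-120908204, plus strand) and CHRM4 (chr11:46391777-46392026, minus strand), from RefSeq on GRCh38.p14, a later build than that of the counts. ARHGAP20 had no entry. Each is written 5′ to 3′ on the strand of its gene, with matches to the motifs searched in capitals.
BSN: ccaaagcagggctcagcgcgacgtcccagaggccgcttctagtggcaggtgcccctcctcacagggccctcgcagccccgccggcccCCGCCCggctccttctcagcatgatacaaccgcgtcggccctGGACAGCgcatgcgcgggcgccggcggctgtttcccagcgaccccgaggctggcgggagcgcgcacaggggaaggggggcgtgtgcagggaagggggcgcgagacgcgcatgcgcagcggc
STXBP5L: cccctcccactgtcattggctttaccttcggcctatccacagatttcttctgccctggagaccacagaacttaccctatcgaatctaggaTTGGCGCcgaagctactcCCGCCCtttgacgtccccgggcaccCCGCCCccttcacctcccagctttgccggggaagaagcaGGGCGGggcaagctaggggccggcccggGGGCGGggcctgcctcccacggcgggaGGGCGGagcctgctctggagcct
CHRM4: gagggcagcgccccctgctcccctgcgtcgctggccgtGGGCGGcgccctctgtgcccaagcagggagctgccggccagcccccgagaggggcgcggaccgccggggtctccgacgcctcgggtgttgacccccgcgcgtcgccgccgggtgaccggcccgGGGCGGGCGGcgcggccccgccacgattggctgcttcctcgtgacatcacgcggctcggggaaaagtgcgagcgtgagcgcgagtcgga

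All 3 promoters were rich in G and C, at 74.4% for BSN, 66.4% for STXBP5L and 77.6% for CHRM4, where the median of 35116 promoters in the table was 58%. The GC box GGGCGG, searched on both strands like every motif here, was found once in BSN, at 5 places in STXBP5L and at 3 in CHRM4, counting overlapping matches, and 42.6% of all promoters hold it. The STXBP5L promoter also held TTGGCGC, which counts as an E2F site here together with TTCCCGC and also with TTGCCGC and further with TTCGCGC, and 10.9% of promoters hold a match to this set. BSN held GGACAGC, the right arm of the element bound by REST, which 4.76% of promoters hold. None of the 3 had a match to the CHR of mitotic promoters (the letters TTTGAA and, as the other form, TTCGAA, in 14.3% of promoters), the E-box CACGTG (6.34%), the TATA box TATAAA (10.7%) or the left arm of the REST element, CAGCACC (6.16%).

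Over the 6 libraries, likeness was measured as the root mean square distance of log2 values after each gene was centred on its own mean. The genes most like BSN were STXBP5L at 0.20 and CHRM4 at 0.20, against a median of 0.82 over 13254 genes. The centring keeps the rise from untreated to induced cells, by which the 4 genes were chosen, so their nearness to each other and distance from most genes follow in part from that choice. STXBP5L was nearest to TP73 at 0.12 and SLC4A4 at 0.13, and CHRM4 to TNFAIP3 at 0.11 and LOC100129196 at 0.13. ARHGAP20, with its different order of libraries, was nearest to ADD2 at 0.14 and RIMBP3 at 0.19, and it stood 73rd in likeness to BSN at 0.42.

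Bassoon works beside other scaffolds of the active zone, and 29 genes for these were looked up, of which 22 were tested. Of these, 10 were called higher and 2 lower, 45.5% and 9.09% of the list against 10.5% and 12.7% of all tested genes, with a median log2 difference of 0.24 where the median of all tested genes was 0.01. This list and every list below were chosen with earlier results of these data known. Their shares are therefore a description, and no enrichment was tested. PCLO, which encodes Piccolo, the large scaffold most closely related to Bassoon, read 134.4, 196.8 and 199.6 normalized counts in untreated and 348.1, 296.1 and 287.0 in induced cells, without overlap. Its log2 difference was 0.82 (limma adjusted p = 0.000235), smaller than the 1.49 of BSN, a difference between the genes that was not tested since BSN was chosen for its rise. Per kilobase PCLO had 7.74 normalized counts in untreated and 13.6 in induced cells, more than BSN in either group.

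RIMS2, a RIM protein that tethers vesicles to calcium channels, rose by 0.78 (adjusted p = 0.000217) and RAB3B, a small GTPase of synaptic vesicles, by 0.75 (adjusted p = 0.000118). The other 7 genes called higher were RIMS1, APBA1, MYCBP2, PPFIA3, PPFIA4, RIMS3 and RAB3A, named after their values were seen, with log2 differences from 0.23 to 0.67. SIAH1 and CTBP1 were lower, by -0.40 and -0.17, and neither was called lower with libraries scaled by total reads alone; with single libraries left out 1 of the list was called lower without untreated replicate 2 and 0 without any of the others. The list has many long genes, and with the length trend taken out 7 were called higher; without induced replicate 1 the number was 6 and without induced replicate 3 it was 3. UNC13C and RAB3C were at 0 in every library, and the central vesicle-priming gene UNC13A was near 0, at 0.260 and 1.74 normalized counts. UNC13B, of the same family, had 1158 normalized counts in untreated and 1211 in induced cells and was not called.

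STXBP5, which encodes tomosyn-1 and is the closest relative of STXBP5L, was not called: it had 896 normalized counts in untreated and 984 in induced cells, a log2 difference of 0.14 (adjusted p = 0.170) that was -0.012 with the length trend taken out. Per kilobase of merged exons it had 33.3 normalized counts without and 36.5 with p21, and per kilobase of its longest transcript 96.4 and 105.9, above STXBP5L in both groups on either scale. Of 30 tested SNARE and fusion factors, 3 were called higher and 1 lower, 10.0% and 3.33% against 10.5% and 12.7% of all tested genes, with a median of 0.01. These were SYT1, a calcium sensor of vesicle fusion, with 0.39, LLGL2 with 0.36, SNAP29 with 0.21 and STXBP3 with -0.23, and leaving out untreated replicate 2 or induced replicate 1 left 1 called higher, while STXBP3 lost its call whenever any 1 of 5 libraries was left out.

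Of the 26 tested genes named ARHGAP other than ARHGAP20, limma called 0 higher and 3 lower, the latter 11.5% against 12.7% of all tested genes, with a median of 0.08; at an unadjusted p under 0.05 4 were higher, edgeR called 0 higher, DESeq2 0, scaling by total reads 4, and leaving out untreated replicate 2 or 3 gave 1. The 3 lower were ARHGAP11A with -1.18, ARHGAP19 with -0.91 and ARHGAP11B with -0.79, and reads of ARHGAP11A and ARHGAP11B, near-identical copies, may have been split between them. The difference between ARHGAP20 and its relatives was not tested. RAP1A and RAP1B, the switches that act on ARHGAP20, had -0.15 and -0.10 (adjusted p = 0.183 and 0.337).

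Of the muscarinic receptors that could be tested, CHRM4 had the highest normalized counts per kilobase in both groups. CHRM4 was chosen with a mean of at least 50, while CHRM2 and CHRM3 averaged 36.9 and 17.6 over all libraries. The merged exons of CHRM2 and CHRM3 are also longer, at 8339 and 15173 bp against 3066 bp for CHRM4. Nothing is therefore read from this order. CHRM2, the other receptor coupled to Gi, had 26.8 normalized counts in untreated and 46.9 in induced cells, a log2 difference of 0.82 (adjusted p = 0.0174) that was 0.55 and no longer called without untreated replicate 1, and was not called without induced replicate 2 or 3. CHRM3, coupled to Gq, had 13.8 and 21.4 (log2 difference 0.65, adjusted p = 0.133). CHRM1 was at 0 in every library and CHRM5 at 0.521 and 2.52 normalized counts, too few to test. On the scale per kilobase CHRM2 had 3.22 normalized counts before and 5.62 after induction, and CHRM3 0.907 and 1.41, or 1.50 and 2.33 by its longest transcript.

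Across acetylcholine receptors and the genes that make, load and split acetylcholine, 9 of 25 could be tested, and CHRM2 was the 1 called higher, with none lower, at a median of 0.35, which is 11.1% against 10.5% of all tested genes; limma gave an unadjusted p under 0.05 to 4 higher and 0 lower, edgeR called 2 and 0 and DESeq2 1 and 0. CHAT, the enzyme that makes acetylcholine, and SLC5A7, the choline carrier, were at 0 in every library.

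Downstream of M4, 20 of 33 genes of Gi signalling could be tested, of which 6 were called higher and 2 lower, 30% and 10% against 10.5% and 12.7% of all tested genes, with a median of 0.07. GNAO1, the alpha subunit of Go, rose from 13.3 to 39.0 normalized counts, a log2 difference of 1.50 (adjusted p = 0.000294), which is also among the largest rises listed above. ADCY1, an adenylyl cyclase, had 1.17 and GNG4, a gamma subunit, 0.61, and the other 3 called higher were the cyclases ADCY3, ADCY6 and ADCY9, named after their values were seen. The abundant Gi subunits GNAI1, GNAI2 and GNAI3 had -0.19, -0.12 and -0.17 and were not called. GNG5 and GNG2 were lower, by -0.26 and -0.20, a count of 2 that became 0 without untreated replicate 2 or induced replicates 1 or 3 and 1 without untreated replicate 3, and 5 with the length trend taken out, while ADCY1 lost its call whenever any 1 of 4 libraries was left out. The potassium channel genes KCNJ3 and KCNJ6, through which M4 acts in neurons, were at 0 in every library.

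**Figure D5:**
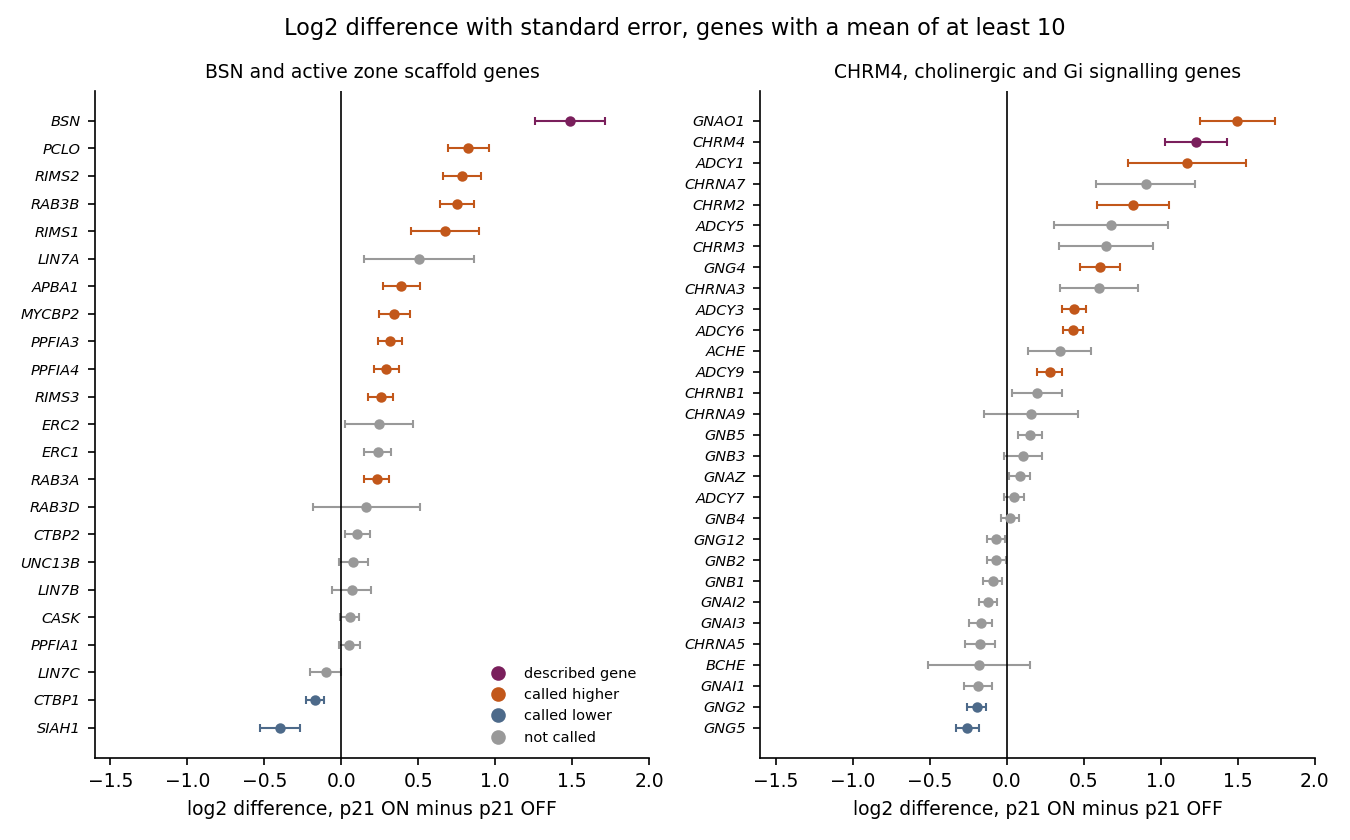
Log2 difference, p21 ON minus p21 OFF, with its standard error for BSN and 22 active zone genes (left) and for CHRM4, 9 cholinergic and 20 Gi signalling genes (right), all with a mean of at least 10 normalized counts; purple marks BSN and CHRM4, orange genes called higher, blue genes called lower and grey genes not called. BSN stands above all its list at 1.49, next to PCLO at 0.82, whereas CHRM4 at 1.23 lies below GNAO1 at 1.50. BSN and CHRM4 were chosen for their rise among genes with a mean of at least 50, and GNAO1 lies below that limit. These orders follow in part from that choice, and nothing is read from them.

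Broad markers of neurons were called in both directions. Of 33 neuronal markers 20 had a mean under 10, and ELAVL4, NEFL, NEFM, SYN2, SLC17A6 and GAD2 were at 0 in every library. Of the 13 tested, 5 were called higher and 2 lower, 38.5% and 15.4% against 10.5% and 12.7% of all tested genes, with a median of 0.32; without induced replicate 1 these were 3 and 0, and without induced replicate 3 they were 3 and 1, and without untreated replicate 2 or induced replicate 2 the genes called lower numbered 1. MAP2, a dendrite microtubule protein, had 0.45 (adjusted p = 0.0123), ENO2, a neuronal enolase, 0.41, and DLG4, a postsynaptic scaffold, 0.41. DLG4 was joined by GAD1 and SLC17A7, named after their values were seen, while TUBB3 and UCHL1 were lower by -0.28 and -0.24. The summed level of the list was 23861 to 28479 normalized counts in untreated and 23680 to 24338 in induced libraries, ranges that overlap, and most of it was UCHL1.

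REST had 1203 normalized counts in untreated and 1355 in induced cells, a log2 difference of 0.17 (adjusted p = 0.0677) that was called with libraries scaled by total reads, at 0.22. Of the 13 genes of REST and its partners 2 were called higher, RCOR3 with 0.25 and RCOR2 with 0.22, and 2 lower, HMG20B with -0.31 and KDM1A, a histone demethylase, with -0.24, which is 15.4% each way against 10.5% and 12.7% of all tested genes. Without induced replicate 1 these were 0 higher and 1 lower, and 1 was higher without untreated replicate 2 or induced replicate 3. Among markers of other cell types limma called 0 of 8 tested osteoblast markers higher and 2 lower, IBSP with -0.38 and DLX5 with -0.26, the latter 25% against 12.7% of all tested genes, while 1 was higher at an unadjusted p under 0.05 and edgeR and DESeq2 called 0 higher. Scaling by total reads, or leaving out untreated replicate 1, gave 1 osteoblast marker called higher, and those called lower numbered 0 without induced replicate 1 and 1 without untreated replicate 2, induced replicate 2 or induced replicate 3. Of 1 glial, 1 immune and 3 epithelial markers that could be tested, limma called 0, also at an unadjusted p under 0.05, as did edgeR and DESeq2, and with the length trend taken out the immune marker CD68 was called higher.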

How the data were processed

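RNA of 6 libraries of SaOS-2 cells with inducible p21, 3 untreated (p21 OFF) and 3 given doxycycline (p21 ON), was analysed. The authors aligned single-end reads with STAR to hg19, assigned reads to genes by HTSeq and divided the counts by DESeq2 size factors, and the deposited values are this normalized signal per gene. Versions, gene annotation and strand setting are not given in the sources used here. All columns could be assigned to a sample.

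Values were multiples of 1 step per library within 0.01 in 100% of cases, so whole reads were recovered, with size factors of 0.796 to 1.35. As the values are normalized, count tests on the recovered reads were planned as alternatives. The main fit was limma 3.58.1 (lmFit, eBayes with trend, no covariates) in R 4.3.3 on log2(normalized count + 1). It covered the 13255 genes that averaged 10 or more. Calls used a Benjamini-Hochberg adjusted p-value under 0.05. The fit was tested on simulated data. BSN, STXBP5L, ARHGAP20 and CHRM4 and all gene lists were chosen with earlier results of these data known, so no p-value is given for the 4 genes. Alternatives were edgeR 4.0.16 and DESeq2 1.42.0 on the recovered reads, TMM scaling, scaling by library size alone, pseudocounts of 0.1 and 10, no filter, a minimum of 10 reads per library, a threshold of 0.01, a log2 difference of at least 1, the replicate number as a block, each library left out in turn, and removal of a trend on length or GC content, the last of these added after seeing the data.

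Genes named besides the 4 were CDKN1A, RB1, REST and the closest relatives; up to 3 called genes of each list with the largest differences; the 4 genes next in rank; the 5 largest rises with a mean from 10 to 50; for each of the 4 the nearest 2 by likeness; and neighbouring or overlapping genes. Gene models from GENCODE on GRCh37, the build of hg19, matched 11401 tested genes by symbol; 2 list genes were matched by an older symbol. Some planned results are not reported here. Promoter sequences are from RefSeq on GRCh38.p14.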

Additional observations from a re-analysis of the deposited data

How the results depend on the processing

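The log2 differences of BSN, STXBP5L, ARHGAP20 and CHRM4 stayed positive in all 40 combinations with another setting and all 24 with a library left out, from 1.23 to 1.53, 1.14 to 1.38, 1.08 to 1.30 and 1.02 to 1.30 over the settings and from 1.24 to 1.68, 1.23 to 1.47, 1.08 to 1.39 and 1.00 to 1.36 over the left-out libraries. The 4 genes were chosen for a rise without overlap between the groups, so no left-out library could turn the sign. Nothing is therefore read from the sign, and the replicate block left each difference as it was. Counts of calls over groups of genes were not steady, and the cause was not tested unless the setting itself made the test stricter. At an adjusted p under 0.01, 616 genes were called higher and 882 lower, with 4 active zone genes and 3 neuronal markers higher, and 0 active zone genes lower, 0 SNARE factors either way, 0 cholinergic genes higher, 0 Gi genes lower, 0 neuronal markers lower and 0 REST complex genes higher. At a log2 difference of at least 1, 48 genes were higher and 152 lower, with 2 Gi genes higher, 1 gene named ARHGAP lower and 0 of every other list. Scaling by library size alone gave 5 SNARE factors, 4 genes named ARHGAP, 2 cholinergic and 4 REST complex genes higher, and 0 active zone genes, 0 SNARE factors, 1 Gi gene and 1 neuronal marker lower. With the GC trend taken out 5 SNARE factors, 2 genes named ARHGAP, 2 cholinergic and 4 REST complex genes were higher and 28 genes with a mean from 50 to 100 lower. With the length trend taken out 5 Gi genes, 1 neuronal marker and 19 genes with a mean from 50 to 100 were lower. DESeq2 called 1 active zone gene and 0 SNARE factors lower and, with a mean from 50 to 100, 87 genes higher and 21 lower. Without a filter 0 active zone genes and 1 neuronal marker were lower. edgeR, with either scaling, called 2 cholinergic genes higher.

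The replicate numbers did not pair the libraries: the correlations of departures between same-numbered libraries were -0.06, -0.02 and -0.05. A fit with the replicate block called 1407 genes higher and 1513 lower, with 1 active zone gene, 0 SNARE factors and 1 Gi gene lower, 2 cholinergic genes higher and 1 REST complex gene higher.

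With each library left out in turn, genes called higher numbered 695 to 1486 over all genes, 70 to 136 with a mean from 50 to 100, 3 to 10 in the active zone, 1 to 3 SNARE factors, 0 to 1 named ARHGAP, 0 to 1 cholinergic, 3 to 6 neuronal markers and 0 to 2 of the REST complex. Genes called lower numbered 887 to 1660 over all genes, 24 to 40 with a mean from 50 to 100, 0 to 1 in the active zone, 0 to 1 SNARE factors, 0 to 2 Gi, 0 to 2 neuronal markers and 1 to 2 of the REST complex. Differences near 0 changed sign: STXBP5 to -0.012, LAYN to 0.023 and MDK to 0.0074 with the length trend taken out, APEH to 0.0094, LAYN to 0.0035 and DGKZ to 0.021 with scaling by library size, and, over the left-out libraries, LAYN from -0.081 to 0.014 and DGKZ from -0.078 to 0.044. Among the other genes named, a call was lost in 40 cases with a library left out, for CHRM2, SYT1, LLGL2, STXBP3, ARHGAP11B, ADCY1, MAP2, RCOR3, KDM1A, IBSP, DLX5, MAPK4, FAM21A, PADI1, ADD2 and RIMBP3, and gained in 4, for RB1, DAG1 and FDX1. Over the other settings 7 were lost, for STXBP3 (DESeq2, replicate block, library size), ARHGAP11B (DESeq2), IBSP (DESeq2, length trend) and DLX5 (length trend), and 7 gained, for RB1 and REST (library size and GC trend, RB1 also length trend), RAP1B (length trend) and DAG1 (library size). Per kilobase of the longest transcript instead of merged exons, STXBP5L in induced cells was at 8.83, ARHGAP20 in untreated cells at 5.65 and STXBP5 at 96.4 and 105.9. Depth limits what can be said of genes at these levels: 15 reads in 1 library carried the lowest value of BSN.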
